A study of Mus musculus with 6 samples.

Results

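Described here are 2003 open chromatin regions of ATDC5 cells that ranked among the 50000 strongest peaks in both Day0 and both Day3 libraries and had no peak among the 100000 strongest in either Day10 library. They are 2.71% of the 73933 regions obtained by merging the overlapping 50000 strongest peaks of all 6 libraries on the 19 autosomes and chromosome X. Peaks were ordered by the authors' fold over background, with ties placed by chromosome and start. The regions were chosen by the ranks of the authors' folds in all 6 libraries, so their ranks and folds on each day are given as a description, with no test. The working name of the set was regions that close only after day 3. The folds go against the word only, since 1921 of the 2003 regions (95.9%) had a lower mean log2 fold on Day3 than on Day0. That share was 64.9% among all merged regions listed in every Day0 and Day3 library and 72.0% among regions strong on all days, so a lower Day3 fold is common in these lists. Closing in a strict sense is not shown by the lists either. A listed peak in at least 1 Day10 library was held by 1902 regions, a number that depends on how regions are drawn. Such a peak is common in the longer Day10 lists. By Day10 library, 93.3% and 93.8% of the 2003 regions were listed, against 97.7% and 97.8% of all merged regions. The 2003 regions are therefore called late-lost regions below, which stands for the rank rule alone.

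ATDC5 is an established mouse line of chondrocyte precursors. The study measured ATAC-seq, in which the Tn5 transposase cuts accessible DNA, at day 0, day 3 and day 10 of differentiation. The Day0 group is labelled as control, and the Day3 and Day10 groups as differentiation. Per the labels' protocols, cells for all 3 days were spotted as dense droplets and left to attach, differentiation medium held beta-glycerophosphate and ascorbate-2-phosphate, and each day had 2 independent biological replicates. All groups come from 1 cell line with no stated genetic change. The line stands in for early cartilage cells, and a bulk library cannot tell a smaller share of open cells from weaker opening in each cell.

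Open chromatin in a cell line holds promoters, which are often shared between cell states, and distal elements such as enhancers, which more often differ between them. During chondrogenesis, precursor cells take on the SOX9-driven programme of cartilage matrix genes and leave behind regulatory elements of the mesenchymal precursor state. A region that leaves the strongest part of a peak list can therefore be an element used in precursors, though a peak list does not show what a region does. An annotation or genome sequence of the build of the lists was not used here. The regions are given by position, their sequences are not printed, and the labelled cell type was not checked against marker genes.

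The lists held between 164642 and 177751 peaks on Day0 and Day3, and 381376 and 390100 on Day10. Equal ranks did not stand for equal folds. At rank 50000 the fold was 16.9 and 17.3 on Day0, 14.5 and 15.0 on Day3, and 17.8 and 17.7 on Day10. At rank 100000 it was 7.57 and 7.51, then 6.67 and 7.23, then 10.1 and 10.2. A late-lost region could thus keep a fold of up to 10.1 or 10.2 on Day10. The smallest listed peak was 68 and 72 bases wide on Day10, against 87 to 90 bases in the other libraries. Peak names of the Day3 libraries, and of no other, include the word lysis. These features follow the day, so a difference in handling and a difference of day cannot be told apart.

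Late-lost regions were of middle strength on Day0. Their median fold was 28.0 and 28.3 in the Day0 libraries, with the middle part of the regions between 23.3 and 33.5 across both libraries. On Day3 the median was 18.3 and 18.9, and on Day10 it was 7.20 and 7.44, with regions not listed counted as lowest. Over all merged regions the same medians were 21.0 and 21.4, 18.9 and 18.9, and 20.6 and 20.9. The late-lost regions thus stood above the median of all regions on Day0, near it on Day3 and well below it on Day10. Their median rank was 26362 and 26286 on Day0, 37964 and 38026 on Day3, and 146269 and 142054 on Day10. The 2 libraries of a day lay close together at each step: the median absolute difference of log2 fold between replicates was 0.09 on Day0, 0.10 on Day3 and 0.14 on Day10.

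**Figure D1:**
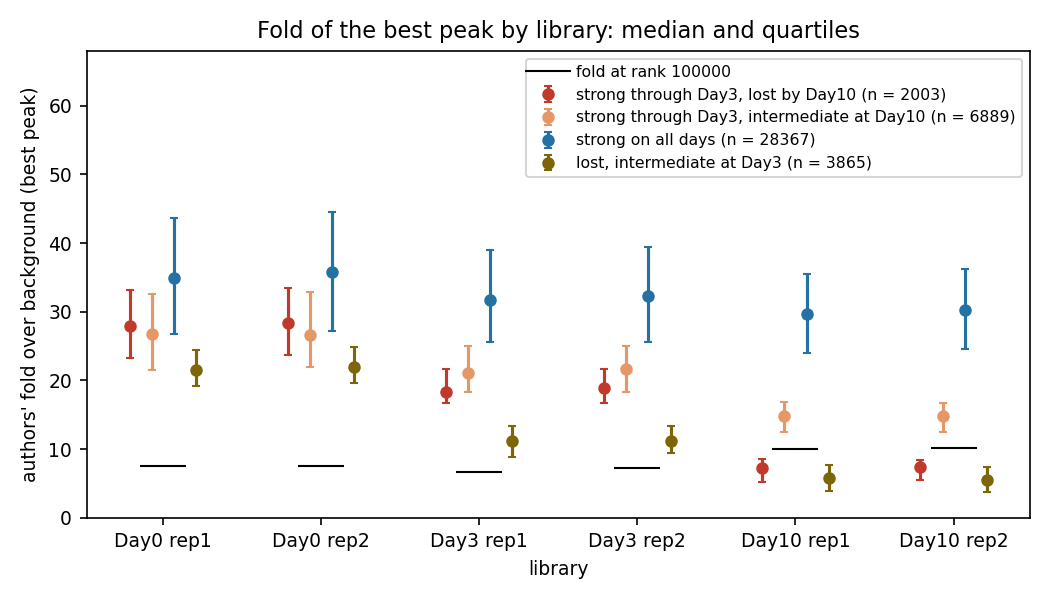
Authors' fold over background of the best peak of each region (vertical axis) in each of the 6 libraries (horizontal axis) for 4 classes of region. Points are medians, bars run from the lower to the upper quartile, and black lines mark the fold at rank 100000. The 2003 late-lost regions (red) have medians of 28.0 and 28.3 on Day0, 18.3 and 18.9 on Day3, and 7.20 and 7.44 on Day10, whereas regions strong on all days (blue) stay near 30 in the Day10 libraries.

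The lower fold on Day3 was seen in nearly the whole set. The median of Day3 minus Day0 was -0.53 on the log2 scale, and it was -0.53 from the libraries numbered 1 and -0.54 from those numbered 2. Both Day3 folds lay below both Day0 folds in 1823 late-lost regions (91.0%), and both lay above in 31 (1.55%). Among the 64981 merged regions listed in all Day0 and Day3 libraries, 54.2% had both Day3 folds below and 25.6% both above. The rule used the same libraries, so nothing is read from these counts. The 28367 regions strong on all days had a median of -0.13, and the 3865 regions that were lost by Day10 and intermediate on Day3 had a median of -0.995. Measured from the regions strong on all days, the late-lost regions lay 0.40 lower on Day3 on the log2 scale, and 91.4% of them were lower than that median. The same share was 51.9% among merged regions listed in all Day0 and Day3 libraries. It was 71.0% among regions strong through Day3 and intermediate on Day10, and 100% among lost regions intermediate on Day3.

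Most of the difference between Day0 and Day10 came after Day3, which the rule favours. It held the Day3 folds of the set at 14.5 or more and the Day10 folds at 10.2 or less. The sizes of the steps are therefore a description of the chosen set. The median of Day10 minus Day3 was -1.47 on the log2 scale and that of Day10 minus Day0 was -2.04, with regions not listed set to the lowest listed fold of the library. Per region, a median of 25.4% of the log2 difference between Day0 and Day10 was already there on Day3, with quartiles of 17.3% and 34.2%. The share was over 50% in 43 regions and under 10% in 229. The early and the late step were close to unrelated across the 1846 regions listed in both Day10 libraries, with a Pearson r of -0.05. Both steps share the Day3 libraries and the rule limits the folds on Day3 and Day10, so nothing is read from this r.

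**Figure D2:**
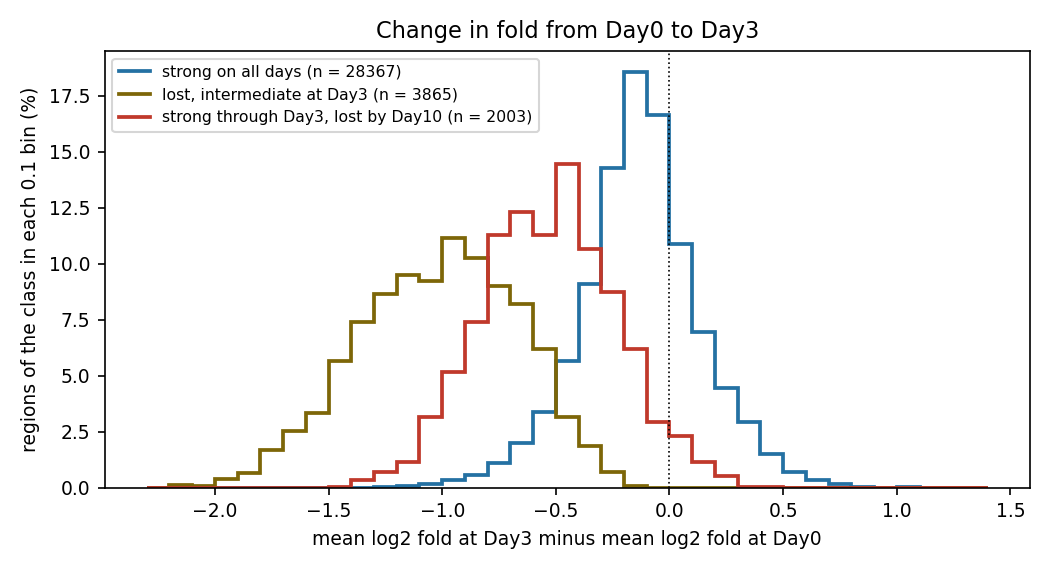
Mean log2 fold on Day3 minus that on Day0 (horizontal axis) against the percentage of each class of regions in bins of 0.1 (vertical axis). Late-lost regions (red, median -0.53) lie between the regions strong on all days (blue, median -0.13) and the lost regions that were intermediate on Day3 (olive, median -0.995).

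The lower Day3 fold was seen at every strength of the Day0 peak. Regions strong on Day0 and Day3 were placed in classes by their poorer Day0 rank. Between ranks 10000 and 20000, the 436 late-lost regions had a median Day3 minus Day0 of -0.76, and the 7527 regions strong on all days had -0.17. Between ranks 30000 and 40000 the values were -0.44 for 542 late-lost regions and 0.02 for 4032 regions strong on all days. Between 40000 and 50000, where the rule left less room for a lower Day3 fold, they were -0.20 and 0.16. In each of the 6 Day0 rank classes the late-lost regions had the lower median. The 6889 regions that were strong through Day3 and intermediate on Day10 lay between the other 2 classes in every rank class.

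Rank on Day3 separated the late-lost regions further than rank on Day0. Of the 37259 regions strong in both Day0 and both Day3 libraries, 5.38% were late-lost, 18.5% were intermediate on Day10 and 76.1% stayed strong. By poorer Day0 rank, the late-lost share was 0.241% among the first 5000, 4.75% between 10000 and 20000, 8.61% between 30000 and 40000 and 6.93% between 40000 and 50000. By poorer Day3 rank, no region of the first 5000 and 1 of the next 5000 was late-lost, against 9.83% between 30000 and 40000 and 24.0% between 40000 and 50000. That last class held 1052 regions, 52.5% of the set. The rule itself used the Day0 and Day3 ranks, so these shares are a description. Whether regions near rank 50000 were late-lost more often because a smaller loss was enough was not tested.

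**Figure D3:**
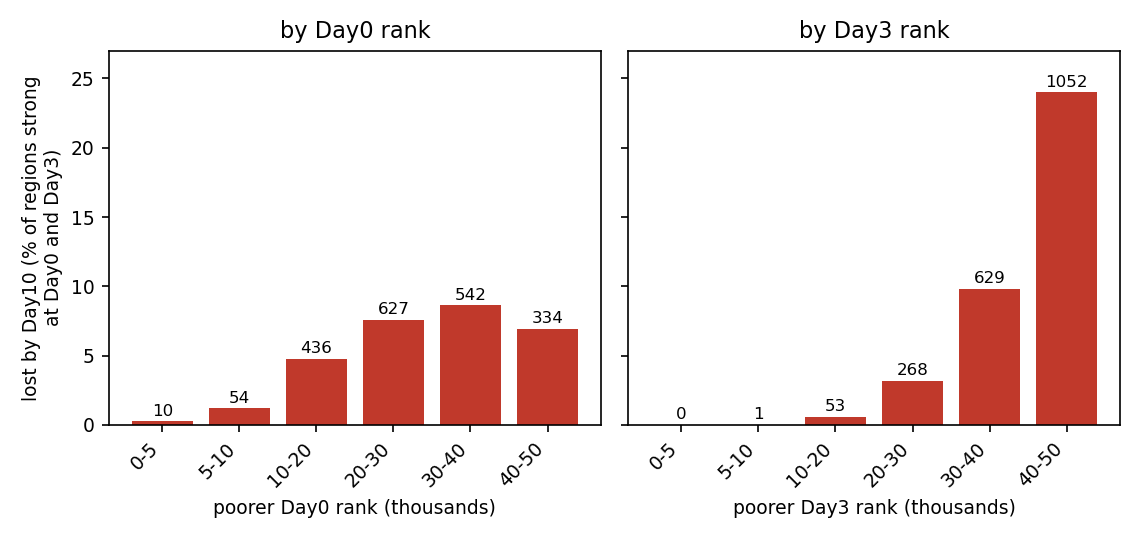
Percentage of regions strong on Day0 and Day3 that were late-lost (vertical axis), by poorer Day0 rank (left) and poorer Day3 rank (right), both in units of 1000 ranks; the number over each bar is the count of late-lost regions. The share reaches 8.61% in one Day0 class and 24.0% in the last Day3 class.

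The strongest late-lost region by its worst Day0 and Day3 rank lay on chromosome 19 from 41924127 to 41924864. Its fold was 49.5 and 51.4 on Day0, 42.3 and 40.0 on Day3, and 8.64 and 10.2 on Day10. It is the 1 late-lost region within rank 10000 in all Day0 and Day3 libraries, at ranks 3449 and 2904, then 4958 and 6890. The second, on chromosome 2 from 32575791 to 32576260, had folds of 40.8 and 42.8, 35.6 and 36.1, and 6.24 and 7.90, and the next regions on both sides of it stayed strong on all days. In these 2 regions Day3 minus Day0 was -0.29 and -0.22 on the log2 scale, a smaller step than the median of the set. Day10 minus Day3 was -2.13 and -2.35, a larger step than the median of the set. Both regions were picked for good Day0 and Day3 ranks, and the rule caps the Day10 fold. That choice favours a small early and a large late difference, so nothing is read from the contrast.

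Chromosome 15 held 3 of the 10 strongest. The region from 37607738 to 37608251 had folds of 47.8 and 49.1 on Day0, 35.6 and 35.6 on Day3, and 8.16 and 7.90 on Day10. The region from 27418545 to 27419273 had 48.9 and 50.3, 33.9 and 33.9, and 6.24 and 7.44, and its Day10 minus Day0 of -2.86 was the lowest of the 10. The region from 8883635 to 8884256 had 41.4 and 42.8, 32.8 and 33.4, and 9.59 and 10.2. In each of them both Day3 folds lay below both Day0 folds. That order was seen in 91.0% of the set and in 54.2% of merged regions listed in all Day0 and Day3 libraries. The rule itself places the Day3 folds above the Day10 folds.

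In the other 5, too, both Day3 folds lay below both Day0 folds. The region on chromosome 7 from 100489014 to 100489997 had folds of 48.9 and 49.1 on Day0, 33.9 and 35.6 on Day3, and 8.16 and 7.44 on Day10. On chromosome 17, the region from 35104331 to 35105115 had 46.6 and 52.0, 35.6 and 32.8, and 9.59 and 9.76. On chromosome 12, the region from 84325513 to 84326302 had 44.3 and 45.1, 31.7 and 34.5, and 10.1 and 9.30. Both regions sat next to a region that was strong through Day3 and intermediate on Day10. On chromosome 4, the region from 31768071 to 31769090 had 48.4 and 43.3, 35.0 and 31.7, and 9.11 and 9.30, and on chromosome 5 the region from 137041023 to 137041955 had 48.4 and 47.4, 31.1 and 36.7, and 8.16 and 7.44. The Day3 replicates of the last region differed most among the 10.

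**Figure D4:**
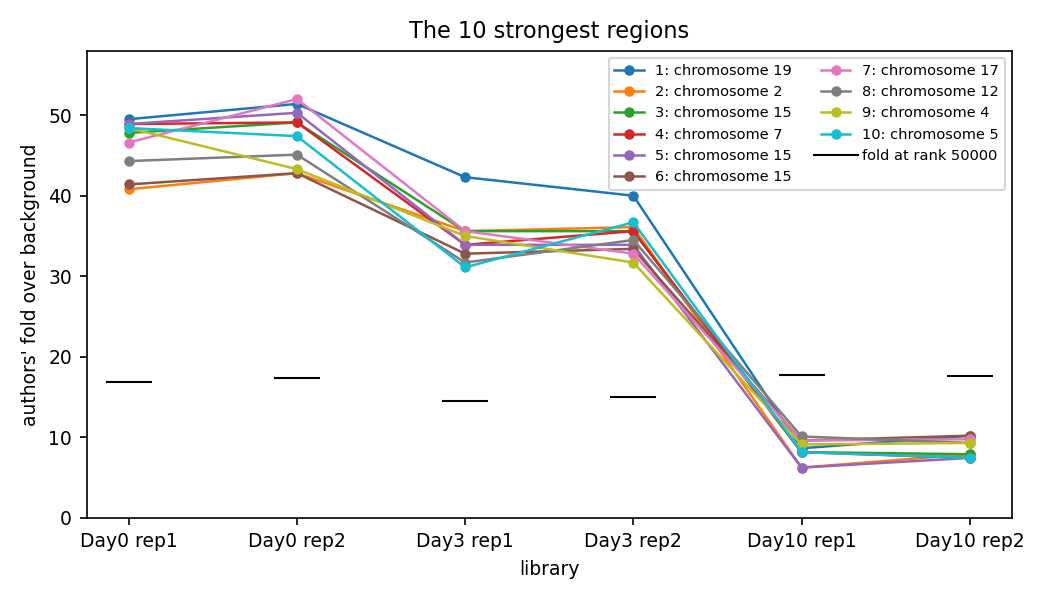
Authors' fold over background (vertical axis) of the 10 strongest late-lost regions in each library (horizontal axis); each colour is 1 region, lines only join its points, and black lines mark the fold at rank 50000. All 10 lie above 30 in the Day0 and Day3 libraries and at 10.2 or lower on Day10.

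No peak was listed in either Day10 library for 5.04% of the late-lost regions. With windows of equal width at the summits in place of merged peaks the share was 30.3%, and with an outer rank of 150000 it was 12.8%. A further 33 lacked a peak in replicate 1 alone and 23 in replicate 2 alone. Counted by Day10 library, 93.3% and 93.8% of the late-lost regions were listed. The same shares were 97.7% and 97.8% for all merged regions. They were 77.3% and 78.8% for lost regions intermediate on Day3. The lowest listed fold on Day10 was 2.88 and 2.79, so regions without a listed peak lay below that level or below the authors' threshold. Of those without a Day10 peak, the region with the best Day3 ranks lay on chromosome 9 from 28970939 to 28971863, with folds of 36.7 and 37.0 on Day0 and 28.9 and 27.8 on Day3. A second on chromosome 9, from 23884221 to 23884917, had 32.6 and 32.9, then 28.4 and 25.0, and another there, from 110509818 to 110510261, had 34.4 and 31.2, then 22.8 and 23.9. The region on chromosome 6 from 5444439 to 5445060 had 41.4 and 36.4 on Day0 and 23.9 and 24.5 on Day3. On chromosome 11, the region from 60747212 to 60747781 had 28.0 and 25.4, then 24.5 and 23.4, and both of its next regions stayed strong on all days.

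Most late-lost regions kept a weaker peak on Day10. The better of the 2 Day10 ranks was between 100000 and 150000 in 1216 regions (60.7%), between 150000 and 200000 in 404, between 200000 and 300000 in 231 and worse in 51. In 400 regions it was within 110000. Just inside the limit were a region on chromosome 6 from 71573144 to 71573755, at ranks 100020 and 120994 with folds of 10.1 and 8.37, and one on chromosome 13 from 28902566 to 28903306, at ranks 120324 and 100035 with folds of 8.64 and 10.2. Another, on chromosome 6 from 83121896 to 83122640, ranked 100039 and 108582, with folds of 10.1 and 9.30. Just outside were regions on chromosome 12 from 103929028 to 103929725, from 80278503 to 80279986 and from 74239353 to 74239792, all with folds of 10.1 and 10.2 and ranks of 99962, 99922 and 99902 in Day10 replicate 2. The folds at the limit were tied, with 5160 and 4925 peaks sharing them, so the order of chromosomes set on which side such regions fell. Of the late-lost regions, 230 (11.5%) had a peak at a tied fold at either limit.

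The 82 regions whose mean log2 fold was not lower on Day3 were weaker at the start. Their median fold was 19.8 and 20.2 on Day0, 21.7 and 22.2 on Day3, and 7.68 and 7.90 on Day10. In the other 1921 regions the Day0 medians were 28.0 and 28.3. The split was made on Day3 minus Day0, which favours low Day0 folds in the 82, so nothing is read from that contrast. Among regions strong on all days, 94.2% had a lower Day3 fold at poorer Day0 ranks up to 5000. Between ranks 40000 and 50000 that share was 28.5%. The highest Day3 minus Day0, 0.45, was on chromosome 9 from 105691701 to 105692178, with folds of 17.5 and 17.9, 22.8 and 25.6, and 6.24 and 6.51. The region on chromosome 7 from 63055631 to 63056562 followed, with 20.4 and 19.6, 24.5 and 26.1, and 8.64 and 9.30. In both, the Day3 folds lay above the Day0 folds without overlap. The other 3 had values between 0.25 and 0.29, on chromosome 5 from 112928152, on chromosome 9 from 13092247 and on chromosome 2 from 168368556.

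At the other end were regions that had lost most of their height by Day3 and still ranked within 50000. The region on chromosome 2 from 19545687 to 19546125 had folds of 37.9 and 40.4 on Day0, 14.5 and 15.0 on Day3, and 6.72 and 6.97 on Day10. Its Day3 minus Day0 of -1.41 was the lowest of the set, and its Day10 minus Day3 was -1.11, so the early step exceeded the late one. On chromosome 13, the region from 63282543 to 63283211 had 39.6 and 38.1, 15.6 and 15.0, and 6.24 and 5.58. The region on chromosome 16 from 21171829 to 21172480 had 39.6 and 43.9, then 15.0 and 18.4, and no listed peak on Day10. The regions on chromosome 3 from 88423753 and on chromosome 11 from 108235964 had a Day3 minus Day0 of -1.34 and -1.33.

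Late-lost regions were mostly single peaks. Their median width was 526 bases, with quartiles of 423 and 661 and a range of 196 to 1581, against 1013 bases for regions strong on all days and 630 for all merged regions. Other classes were of like or smaller width, with 582 bases for regions intermediate on Day10, 416 for lost regions intermediate on Day3 and 358 for those lost by Day3. A wide region has more room for a Day10 peak that the rule forbids, so width is not independent of the choice. A single peak overlapped 95.1% and 94.8% of the late-lost regions in the Day0 libraries. In the wider regions strong on all days these shares were 72.2% and 72.9%. On Day10 a single peak overlapped 76.6% and 77.4% of the late-lost regions, and 16.7% and 16.4% held 2 or more. Listed peaks covered a median of 90.8% and 91.6% of the bases of a region on Day0, 83.4% and 82.5% on Day3, and 42.2% and 44.2% on Day10. In regions strong on all days, that cover was 79.9% and 80.3% on Day0 and 89.9% and 91.8% on Day10. Region bounds were drawn from the strongest peaks, and the rule bars such Day10 peaks from late-lost regions. The bounds of late-lost regions thus come from Day0 and Day3 peaks, which favours high cover then and low cover on Day10. Regions strong on all days include Day10 peaks in their bounds, so nothing is read from these cover values. The best peak of a late-lost region was a median of 453 and 454 bases wide on Day0, 417 and 407 on Day3, and 207 and 217 on Day10. Over all merged regions it was 445 and 449, 462 and 459, and 490 and 510. The median width of all peaks used was 230 and 233 bases on Day0 and 161 and 166 on Day10. The rule leaves late-lost regions only Day10 peaks outside the strongest 100000, so nothing is read from their narrower Day10 peaks.

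What remained on Day10 lay near the earlier summit. The median distance between the summits of Day0 and Day10 was 25 bases in both numbered pairs of libraries, and 70.4% and 71.9% of the summits lay within 50 bases. Between Day0 and Day3 the median distance was 12 bases in both pairs, and between the replicates of a day it was 9 bases on Day0, 10 on Day3 and 17.5 on Day10. Regions strong on all days had 19 and 18 bases between Day0 and Day10. Only regions listed in both libraries of a pair enter these distances, and a low peak gives a less certain summit.

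All 20 chromosomes held late-lost regions. As a share of the merged regions of a chromosome, they ranged from 2.07% on chromosome X, with 31 regions, to 3.55% on chromosome 3, with 111. Chromosome 12 followed with 3.39% and chromosome 13 with 3.24%, and chromosomes 8 and 11 had 2.10% each. Among regions strong on Day0 and Day3, the share ran from 3.96% on chromosome 11 to 7.04% on chromosome 3. No test was made of these shares.

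Late-lost and other lost regions made up a larger share of the neighbours of late-lost regions than of all regions. The next merged region on either side of each late-lost region gave 4003 neighbour positions. A region with a late-lost region on each side is counted for both. Of these positions, 6.30% held a late-lost region, against 2.71% of all merged regions. A further 9.74% held a region lost and intermediate on Day3, against 5.23%. Regions gained after Day3 made up 4.57% of the neighbours and 7.51% of all regions, and regions strong on all days 32.4% and 38.4%. Late-lost regions were a median of 26.9 kb from the nearest region strong on all days, against 13.6 kb for all merged regions. A gained region lay within 50 kb of 26.4% of them, against 45.4% of all merged regions. The lost regions that were intermediate on Day3 lay on the same side of all merged regions in both measures, with 19.2 kb to the nearest region strong on all days and a gained region within 50 kb of 32.0%. Neighbouring regions can belong to 1 broader open stretch, and these shares were not tested.

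**Figure D5:**
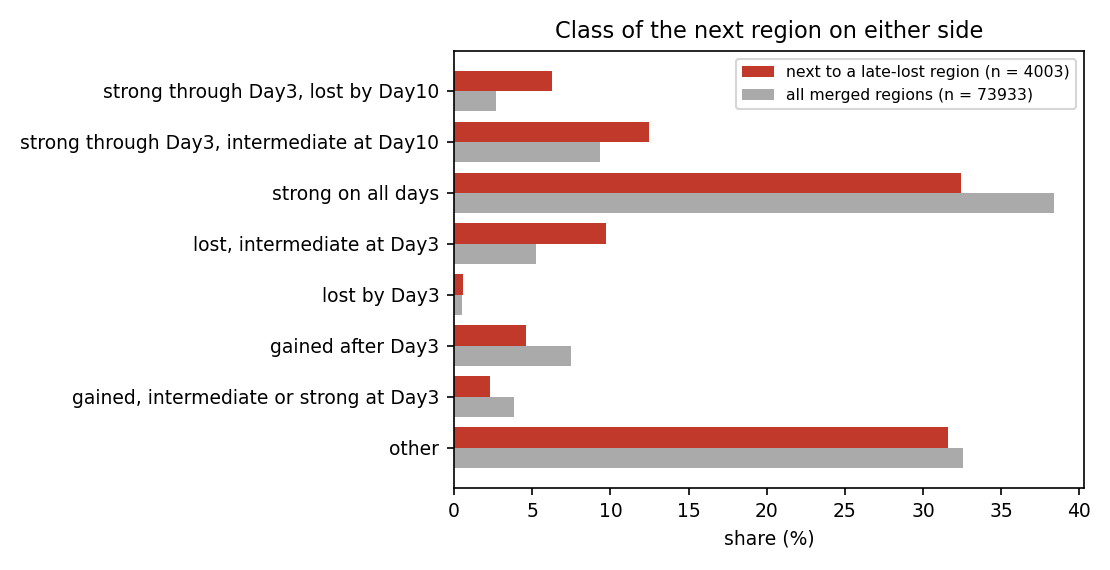
Percentage (horizontal axis) of each class of region (vertical axis). Red is the 4003 neighbour positions on either side of late-lost regions, and grey is all 73933 merged regions. Late-lost regions make up 6.30% of the neighbours against 2.71% of all regions, and regions gained after Day3 make up 4.57% against 7.51%.

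Runs of neighbouring late-lost regions numbered 100 of 2 regions, 10 of 3 and 2 of 4. A run means late-lost regions next to each other among the merged regions, at any distance, so it need not be compact. The looser run of 4 spanned 999.7 kb, and 1 run of 3 spanned 2500 kb. Run counts of other classes are not given here. The tighter run of 4 spanned 57.5 kb on chromosome 6 from 89853697 to 89911168. Its first region had folds of 39.6 and 42.2 on Day0, 20.02 and 21.7 on Day3, and 8.16 and 9.30 on Day10. The second, from 89857672 to 89858480, had 46.0 and 38.7, 30.0 and 30.6, and 10.1 and 9.76. The next, from 89867241 to 89867510, was weaker, with 20.4 and 17.9, 16.7 and 16.1, and 7.68 and 7.44. The last, from 89910648 to 89911168, had 31.5 and 35.2, 22.2 and 23.9, and 9.11 and 9.76. In all 4 regions both Day3 folds lay below both Day0 folds, and the early step ranged from -0.97 to -0.22 within this stretch.

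Counted in blocks of 1 megabase, named after their counts were seen, the largest number was 7 late-lost regions, on chromosome 5 from 38000001 to 39000000, among 63 merged regions of which 15 were lost and 4 gained. On chromosome 6, the block from 36000001 to 37000000 held 6 among only 24 merged regions, with 12 lost, none gained and 2 strong on all days. The late-lost region with the highest Day0 folds in that block, from 36808738 to 36810052, was 1315 bases wide and had folds of 42.5 and 43.9 on Day0, 22.8 and 25.6 on Day3, and 6.24 and 6.51 on Day10. A pair nearby, from 36852775 to 36853213 and from 36853310 to 36853806, had Day10 minus Day0 of -2.29 and -2.35. In the block on chromosome 5, the region from 38033544 to 38034205 was the exception to the early step, with 23.9 and 23.7 on Day0, 25.6 and 22.8 on Day3, and 8.64 and 6.51 on Day10. Of the blocks with any merged region, 715 held 1 late-lost region, 329 held 2 and 1092 none.

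The choice was then made with 1 replicate number and read in the libraries it did not use. The libraries numbered 1 alone gave 2829 regions. In the libraries numbered 2, which had no part in that choice, 71.3% of these met the full rule, 96.3% ranked within 50000 on Day0, 86.1% did so on Day3, and 86.3% were outside 100000 on Day10. Of all regions drawn from the libraries numbered 2 alone, 3.90% met the rule there. The median rank of all 73933 merged regions in those libraries was 38536 on Day0, 38015 on Day3 and 37890 on Day10. Most merged regions thus also ranked within 50000 on Day0 and on Day3. The median fold there was 27.2 on Day0, 18.4 on Day3 and 7.44 on Day10, and the Day10 fold was below the Day3 fold in 99.6% of the regions, against 61.7% of all regions. The Day3 fold was below the Day0 fold in 93.2%, with a median difference of -0.55. Among all regions drawn from the libraries numbered 1 and listed in the others on Day0 and Day3, the Day3 fold was lower in 65.0%, with a median difference of -0.15. In the reverse direction, 2761 regions were chosen and 73.0% met the rule in the libraries numbered 1. Of all regions drawn from the libraries numbered 1 alone, 4.00% met it. In those libraries 93.5% of the 2761 had the lower fold on Day3, against 64.5% of all regions, with a median difference of -0.54. Each side has 1 library per day, and no test was made.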

How the data were processed

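ATAC-seq was measured in 6 libraries, 2 for each of Day0, Day3 and Day10, grouped by sample title. The deposited files are 1 narrowPeak list per library, not pooled. The submitters' processing notes name Trim Galore and mm10, while the lists hold scaffolds of GRCm39, so positions are read as GRCm39 and counted from 1. The gene table at hand is of GRCm38.p6 and its positions were not used. Which aligner, peak caller and Tn5 shift were used is not given in the sources used here. The authors' fold ratio over background, -log10 p and -log10 q, whole-number score (from the q) and summit offset are used as deposited, and total depth is unknown, so no interval was made from them. From its spacing, the deposited fold was (pileup + 1) / (background + 1), with whole pileups within 0.01 in 100% of peaks of each library. The fold at a given height thus depends on the background, 0.717 to 0.799 at Day0 and Day3 and 1.08 and 1.15 at Day10, and strong peaks may be compressed.

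Regions were merged with at least 1 base of overlap. A region takes the best ranked overlapping peak of a library. Strong means rank 50000 or better in both libraries of a day, lost or out means worse than 100000 or not listed in both, and intermediate is what remains. Python 3.11.15, numpy 2.4.6 and pandas 2.3.3 were used, and the merging was tested on simulated data. Named regions were the 10 with the best worst rank over Day0 and Day3, the 5 best at Day3 without a Day10 peak, the 5 highest and 5 lowest in Day3 minus Day0, and 3 on each side of the Day10 limit. Members, lists and rules were chosen with earlier results of these data known. No p-value was computed, since the rule uses all 6 libraries. Promoter shares, motifs and gene lists were not run, since positions of genes and sequence in GRCm39 were not used here.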

Additional observations from a re-analysis of the deposited data

How the results depend on the processing

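All values come from peak heights of 2 libraries a day, ties at the limits are common, and read depth, which limits weak peaks, is unknown. No paired analysis was possible because there is no fit or test to which a replicate block could be added. As values, 1854 of the 2003 regions were lower on Day3 in both numbered pairs. That count was not made for all merged regions. Of the merged regions listed in every Day0 and Day3 library, 64.9% had a lower mean log2 fold on Day3. The rule used the same libraries, so nothing is read from the 1854. The number of late-lost regions followed the limits. It was 874 (1.46% of the merged regions) and 3565 (4.05%) with an inner rank of 40000 and 60000, 3614 (4.89%) and 787 (1.06%) with an outer rank of 75000 and 150000, 0.137% of the merged regions when no Day10 peak was allowed, and 872 (1.18%) with 1 fold limit for all libraries (16 or more on Day0 and Day3, none of 8 or more on Day10). Under that last limit 852 of the 2003 regions and 2 of the 10 strongest remained. It stayed within 1.5 times when peaks were ordered by -log10 q (2003), with an overlap of at least 0.5 of the shorter interval required (2005), with windows of equal width at the summits (2786), and with the libraries numbered 1 or 2 alone (2829 and 2761). Leaving out 1 library gave 2063 to 2350, since fewer conditions had to be met. With ties taken in reverse order, an alternative chosen after seeing the data, there were 2014 regions, of which 1907 of the original set remained and 7 of the 10 strongest. With an outer rank of 150000, and with no Day10 peak allowed, 0 of the 10 strongest met the rule.

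Day3 minus Day0 was negative under every alternative run. For the inner ranks of 40000 and 60000, the outer ranks of 75000 and 150000, no Day10 peak, summit windows, and libraries 1 and 2 alone, its median was -0.50, -0.55, -0.49, -0.58, -0.55, -0.44, -0.51 and -0.51, and without 1 library -0.54 to -0.51. It was -0.62 as pileup over background with nothing added and -0.40 less the regions strong on all days, both added after seeing the data. The share of regions lower at Day3 was, in the first order, 97.4%, 94.2%, 94.2%, 97.2%, 96.0%, 90.9%, 94.8% and 94.6%, then 94.7% with 1 fold limit, 95.7% with reversed ties, 97.8% as pileup over background, 91.4% less the regions strong on all days, and 94.5% to 96.4% without 1 library. Among merged regions listed in all Day0 and Day3 libraries, it was 71.0% as pileup over background and 51.9% less the regions strong on all days.

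The share with no Day10 peak was 3.78% and 6.48% for the inner ranks, 2.79% and 12.8% for the outer ranks, 30.3% for summit windows, 7.80% with 1 fold limit, 6.43% and 5.90% for libraries 1 and 2 alone, and 4.99% to 5.75% without 1 library. In the same order the median width was 577 and 493 bases, then 547 and 495, then 513 with 1 fold limit, 482 and 486 for libraries 1 and 2 alone, 462 with no Day10 peak, and 504 to 531 without 1 library. The share of neighbours that were late-lost was 4.12% and 7.77%, then 8.44% and 2.93%, 0.990% with no Day10 peak, 5.46% for summit windows, 3.67% with 1 fold limit, 8.45% and 8.19% for libraries 1 and 2 alone, and 6.79% to 7.04% without 1 library. It was 5.91% with ties in reverse order. Late-lost regions were a different share of all regions in each setting. In the same order that share was 1.46% and 4.05%, 4.89% and 1.06%, 0.137%, 3.54%, 1.18%, and 4.00% and 3.90%. Without 1 library it was 2.83% to 3.22%, and with ties in reverse order 2.73%. The share of neighbours depends on this base, so it is not compared between settings. The shares of promoters, motifs and fixed gene lists were not run.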
